A study of Mus musculus with 9 samples.

Results

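The introns described here are those longer than 10000 bases (end minus start above 10000) in a table of introns from mouse embryonic stem cells. They number 1856 of the 22228 introns in the table, and 1350 of its 7016 genes (19.2%) hold at least 1. The other 20372 introns serve as the comparison. The cells were v6.5, an established mouse line grown on gelatin with leukaemia inhibitory factor. The compound KH-CB19 inhibits Clk kinases and was given in the solvent dimethyl sulfoxide (DMSO), and control cells had the solvent alone. Harvest was immediate (0 h) or 2 h later, which gives 4 groups: DMSO 0 h, KH-CB19 0 h, DMSO 2 h and KH-CB19 2 h. Each group held 2 libraries from independent cultures, made from polyadenylated RNA with a strand-specific, paired-end protocol. The 1 untreated library of the series was not analysed here.

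An intron is removed from the transcript by the spliceosome, which pairs a donor site at its start with an acceptor site at its end. In a long intron the donor waits until the polymerase has reached the distant acceptor, and reads from such introns come both from RNA still being made and from finished RNA that keeps the intron. A detained intron is one that stays in an otherwise spliced, polyadenylated transcript held in the nucleus. SR proteins help the spliceosome to find splice sites, and they are the main substrates of the Clk kinases.

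For each intron the authors' deposited table gives an observed mean read count at 0 h and an expected one, in the DMSO and in the KH-CB19 group. How the expected count was made is not given in the sources used here. It differed with length within genes such as Btbd9 and Adam23, as shown further on. Shares above and below expected by length therefore do not stand against a count free of length. An intron is called above or below expected where the authors' adjusted p is below 0.05. A subset of introns is classed as detained, and only these have normalised means at 2 h. The rule behind that class is not given either. The table holds group means only, so no value below has a spread between libraries beside it and no new test was made. Shares of long introns are set beside the share among all introns instead.

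The long introns ranged from 10014 to 330419 bases, with a median of 17838, against a median of 1728.5 for the others. In 1004 genes a single intron was that long, and 346 genes held several. Coordinates are those of the authors' build, mm9, counted from 1. Among the longest were intron 2 of Ube2e2, a ubiquitin-conjugating enzyme, at 241062 bases, and intron 2 of Ptprg, a receptor tyrosine phosphatase, at 231496 bases. Intron 5 of Wwox had 190782 bases and intron 6 of Btbd9 had 179223 bases. Mad1l1, Thada, Enox1 and Tns3 held 6 long introns each and Exoc4, a subunit of the exocyst, held 5, and none of their long introns was detained. At the length limit itself, intron 26 of Atp9b (10014 bases), intron 3 of Cul1 (10022 bases) and intron 40 of Utrn (10028 bases) lay just inside. Intron 7 of Neil3 (9999 bases), intron 2 of Ncoa5 (9983 bases) and intron 4 of Phf20 (9970 bases) lay just outside.

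The results at 2 h turn on 8 long introns, whose exon junctions show what is joined when each is removed. For 6 of them the junction is given from GENCODE M21 transcripts (GRCm38), as the last 15 bases of the exon before the intron and the first 15 bases of the exon after it. Capitals mark the last 3 bases of the first exon and the first base of the second, the exon part of the splice site consensus. The first 4 are from introns that rose with KH-CB19 and the last 2 from introns that fell. The Cdc5l intron, which rose, had no match, and the junction of the Tor1aip2 intron, which fell, is not printed here.
Sec24b intron 3: agatgcagactaAAGGcatgcagtatggtg
Fnbp1 intron 10: agcctaaagcgtGGGGgtgtcacaccagaa
Ergic1 intron 10: aggttcatcaccACAAaagttcatctggga
Tmem161b intron 6: tttgtcttttgcAATCaaagttctattttc
Zcchc7 intron 6: cagtatcacctaACGAccaaacctggacca
Smc1a intron 21: tgtgaagatctgAAGGatgcacaggcggag
Sec24b and Smc1a, which went opposite ways, both had AAG at the end of the exon. The exon before the intron ended in CAG or AAG in 39.4% of the 33 long detained introns with a match, in 43.7% of all matched long introns and in 42.1% of all matched introns. These shares describe exon ends, and the intron side of the sites was not read here.

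At 0 h, long introns were less often above expected than the table as a whole and more often below it. In the DMSO group 1805 long introns had a value. Of these 381 (21.1%) were above expected, against 28.2% of all introns and 28.9% of the others. A further 252 (14.0%) were below expected, against 10.9% of all introns and 10.6% of the others. The median log2 ratio of observed to expected reads was 0.30 in long introns and 0.55 in the others. These shares follow the observed reads, which are the numerator of the ratio, so a limit on them shifts the shares by itself. A limit on expected reads, the denominator, does so too. From 10 to 20 observed reads to 200 or more, the share above expected went from 2.97% to 69.8% in long introns and from 7.05% to 75.6% in the others. With at least 50 observed reads, 48.5% of long introns were above. By class, it was 38.7% of long introns and 53.9% of the others at 50 to 100 observed reads. At 100 to 200 it was 57.4% and 66.7%, so the long introns had the lower share in each class. With at least 50 expected reads, a minimum added after seeing the data, 19.0% of long introns and 24.4% of the others were above, 38.8% and 36.1% were below, and the median of the long introns was -0.28. In the KH-CB19 group 1604 long introns had a value: 339 (21.1%) were above, against 27.6% of all introns, and 173 (10.8%) were below, against 8.93% of all. The median log2 ratio there was 0.36 in long introns and 0.62 in the others. The observed 0 h means of the long introns summed to 108743 reads in DMSO and 89251.5 in KH-CB19, and whole-library depth is unknown.

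These shares also differed by intron number. The authors number introns along the transcript, starting at 2. Long introns had a median number of 4.5 and the others one of 8, and 38.7% of long introns were numbered 2 or 3, against 17.2% of the others. Among introns numbered 2 or 3 in the DMSO group, 11.4% of long introns were above expected, against 12.7% of the others. These include introns whose observed equals their expected mean in both 0 h groups, 32 long ones, each the one listed intron of its gene, and 280 others. Without them the shares were 11.9% and 13.9%. At numbers 4 to 6 the shares were 17.9% and 20.4%, and at 7 to 10 they were 22.6% and 28.2%. At numbers 11 to 20 they were 38.2% and 37.0%, and from 21 on 48.1% and 48.6%. Within these classes long and other introns thus stood closer to each other than early introns stood to late ones. The share of long introns below expected went the other way, with 19.4%, 12.7%, 13.9%, 6.32% and 3.77% in the same classes. Observed reads per kb of long intron hardly differed between the number classes, with medians of 1.32 at numbers 2 or 3 and 1.59 from 21 on. Expected reads per kb were lower at each later class, from a median of 1.59 at numbers 2 or 3 to 0.637 from 21 on. The classes pool introns of different genes, and numbers from 21 on come only from genes with many introns. Introns of 1 gene were not compared by number. The number classes and the count without equal values were chosen after the data were seen.

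**Figure D1:**
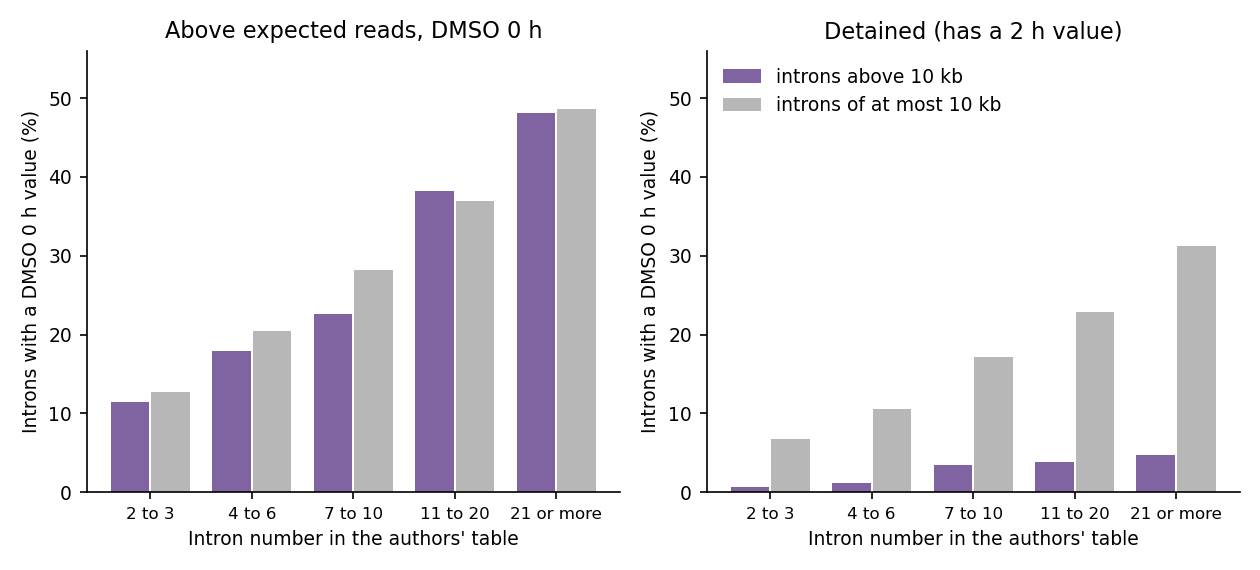
Percent of introns with a DMSO 0 h value (vertical axes) that were above expected reads (left) or detained (right), by intron number in the authors' table (horizontal axes), for introns above 10 kb (purple) and at most 10 kb (grey). The left bars run close together from 11.4% and 12.7% to 48.1% and 48.6%, while on the right the long introns stay at or below 4.72% and the others reach 31.2%.

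Among long introns, the calls also differed by length. In the DMSO group 25.7% of introns of 10 to 20 kb were above expected, 16.6% of those of 20 to 50 kb, 10.8% of those of 50 to 100 kb and 14.3% of the 42 above 100 kb. The shares below expected were 12.4%, 18.2%, 11.9% and 4.76% in the same order.

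**Figure D2:**
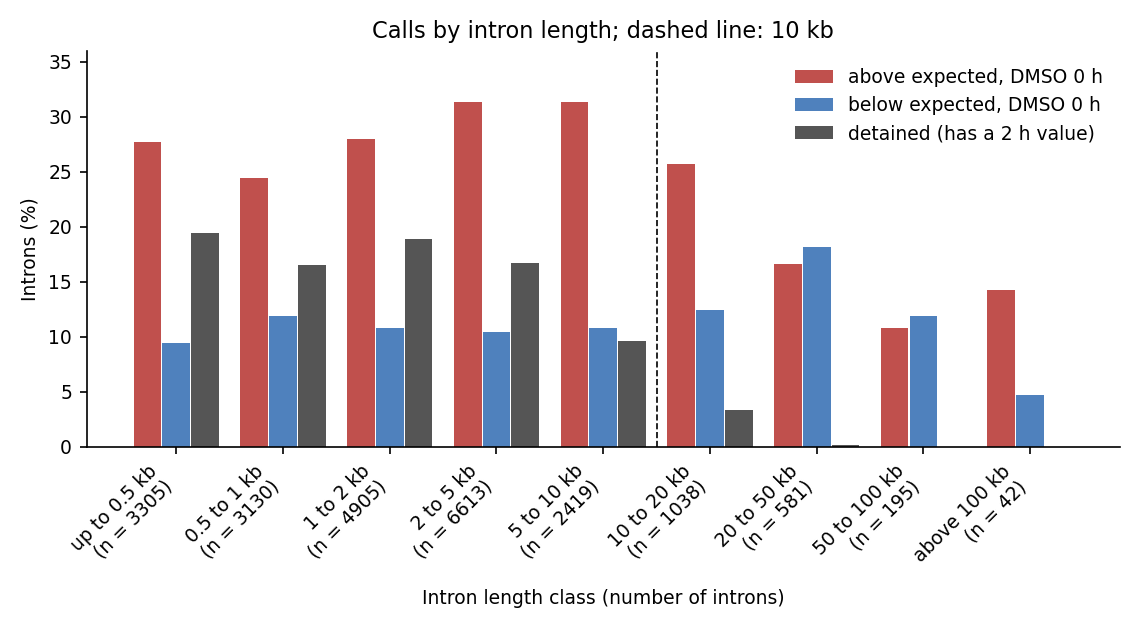
Percent of introns (vertical axis) above expected, below expected and detained in each length class (horizontal axis, number of introns in brackets; above and below are shares of introns with a DMSO 0 h value). To the right of the dashed line at 10 kb, the detained share goes from 3.37% to 0.172% and then 0, and the share above expected from 25.7% to 10.8% and then 14.3%.

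Introns of Dennd1a, Plcg2, Hdac4 and Ube3c were among the long introns furthest above expected. Intron 19 of Dennd1a, an exchange factor for Rab35 in endocytosis, had an observed DMSO mean of 69.5 reads against 6 expected, for which the authors' deposited table has a log2 ratio of 3.53 (adjusted p = 8.41e-13). Intron 31 of Plcg2, a phospholipase C, had 61.5 reads against 7.5 expected, with a log2 ratio of 3.04. Intron 24 of Hdac4, a class II histone deacetylase, had 88 reads against 11.5, and intron 19 of Ube3c, a ubiquitin ligase, had 247.5 against 32.5. All 4 were also above expected in the KH-CB19 0 h group, with log2 ratios in the authors' deposited table of 3.41, 2.87, 3.12 and 2.89 in the same order. Only the Ube3c intron of these 4 is classed as detained.

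With at least 50 observed reads, which 40 of the 252 long introns below expected had, 4 of the 5 lowest ratios were in introns numbered 2 to 4. Introns with fewer reads, such as intron 2 of Ptbp2 described further on, can lie lower. Intron 3 of Nudcd3, a cochaperone tied to dynein, had an observed DMSO mean of 67.5 reads against 608.5 expected, for which the authors' deposited table has a log2 ratio of -3.17 (adjusted p = 3.94e-15). Intron 8 of Arglu1, a splicing modulator, is the last intron of its gene in GENCODE and had 194 reads against 1662, a log2 ratio of -3.10. Intron 4 of Enah, an actin polymerisation factor, had 60.5 reads against 355.5. Intron 2 of Celf1, an RNA-binding splicing regulator, had 118.5 reads against 680, and intron 2 of Rbpms2, another RNA-binding protein, had 58.5 against 226.5. The KH-CB19 0 h group gave log2 ratios of -3.15, -3.01, -2.73, -2.29 and -2.11 for these introns in the authors' deposited table, close to those in DMSO.

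Of the 346 genes with several long introns, 43 (12.4%) held both long introns called above and long introns called below. The same share was not counted for shorter introns, so it cannot be read as particular to long ones. Enox1 had 1 long intron above expected and 3 below, with observed DMSO means from 26 to 388.5 reads and log2 ratios from -1.52 to 1.57. Thada had 2 above and none below, Tns3 had 1 of each, and none of the long introns of Mad1l1 or Exoc4 was called. Jarid2, a Polycomb cofactor named here after its values were seen, had 5 long introns. Intron 6 of Jarid2, the longest with 91463 bases, had 630.5 reads against 398 expected in the DMSO group and was not called. Introns 7, 10, 12 and 14 of Jarid2 were all below expected, with 46 reads against 206.5, 35 against 212, 33.5 against 132 and 23.5 against 141.

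Within genes, the long introns listed had the lower ratio in most cases. The listing of introns itself affects this comparison, and the ratio rests on expected counts that can differ with length. In the DMSO group 905 genes had both a long and a shorter intron with a value. The median ratio of the long introns was lower in 681 of these genes and higher in 224 (24.8%), with a median difference (long minus shorter) of -0.94 on the log2 scale. In the KH-CB19 0 h group it was higher in 198 of 781 genes and the median difference was -0.93. Per kb, the long introns had fewer reads in 816 of the 905 genes, with a median 4.95-fold gap. Only 6 listed introns had fewer than 10 observed reads in DMSO, so a shorter intron needs more reads per kb to be listed at all, and one with few expected reads is listed only where its ratio is high. Expected DMSO reads differed with length within genes too. In Btbd9 they were 128.5 for intron 6 (179223 bases) and 56.5 for intron 7 (34502 bases). In Adam23 they were 37.5 for intron 3 (37821 bases) and 22 for intron 4 (13117 bases). The part of the expected counts in the lower ratio was not tested. Against introns of 5 to 10 kb only, an alternative added after seeing the data, the long introns had the higher ratio in 32.3% of genes and more reads per kb in 21.0%. With at least 50 expected reads in every intron compared, also added, these were 39.5% and 25.6% of 129 genes.

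**Figure D3:**
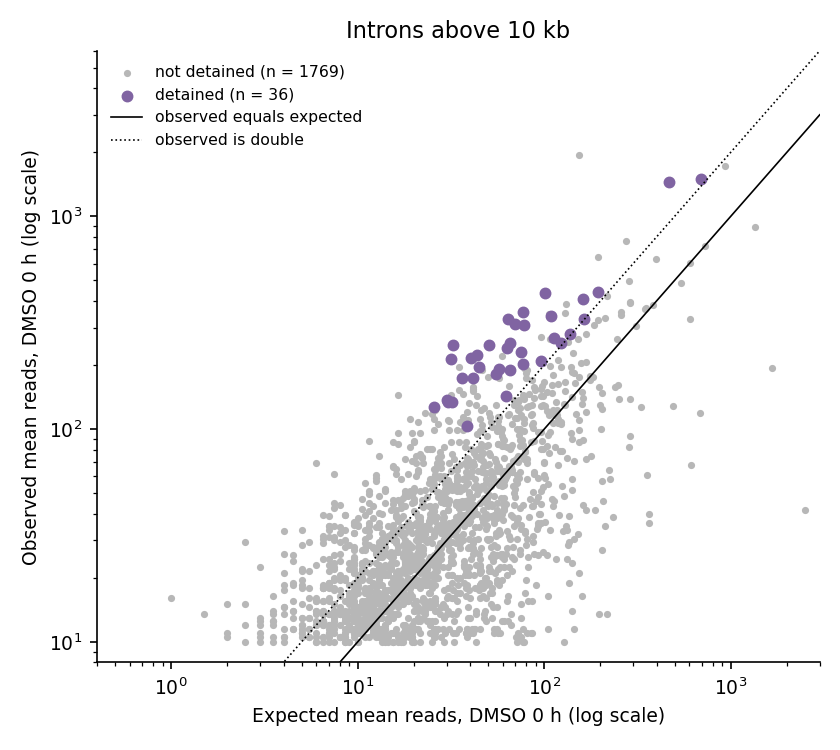
Observed (vertical axis) against expected (horizontal axis) mean reads at DMSO 0 h, both on log scales, for the 1805 introns above 10 kb with a value; each point is 1 intron, and purple points are the 36 detained ones. The detained introns all have over 100 observed reads and lie on or above the dotted line where observed is double expected, as do many grey points with fewer reads.

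Detained introns were rare among long introns. Of the 1856, 36 (1.94%) had a 2 h value, against 15.5% of all introns and 16.8% of the others. The share was 3.37% at 10 to 20 kb (35 of 1038) and 0.172% at 20 to 50 kb (1 of 581), and none of the 195 introns of 50 to 100 kb or of the 42 above 100 kb was detained. Just below the limit, at 5 to 10 kb, it was 9.59%, and at 1 to 2 kb 18.9%. Unlike the share above expected, the detained share was lower in long introns in every class of intron number. It was 0.712% against 6.71% of the others at numbers 2 or 3, and 4.72% against 31.2% from 21 on. The 36 lay in 36 different genes, and none overlapped another intron of the table.

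An excess over expected reads was not enough. Of 1553 long introns with a value in both 0 h groups, 251 (16.2%) were above expected in both with a log2 ratio of at least 1 in each, against 23.5% of all introns and 24.2% of the others. Of these 251, 36 (14.3%) were detained, whereas 3021 of 3994 (75.6%) of the other introns that met the same limits were. The 215 long introns that met them and were not detained had a median of 60 observed DMSO reads and 3.49 reads per kb. The 36 detained ones had a median of 235 reads and 18.2 reads per kb.

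Among introns that met these limits, long and other introns of like reads per kb were detained about as often. In classes chosen after seeing the data, none of 144 long and none of 97 other introns under 5 reads per kb was detained. At 5 to 10 reads per kb it was 1 of 59 long introns (1.69%) and 5.21% of the others. At 10 to 20 it was 20 of 32 long introns (62.5%) and 56.7% of the others, and at 20 to 50 it was 13 of 14 (92.9%) and 92.4%. Both long introns with at least 50 reads per kb were detained, as were 94.3% of the others. In classes of observed reads instead, among the same introns, none of 76 long introns with 50 to 100 reads was detained, against 85.8% of the others, and from 200 reads on it was 24 of 32 against 94.8%. Over all introns with a DMSO value, whatever their ratio, long introns were detained more often at like reads per kb: 29.4% against 11.1% at 10 to 20, 43.3% against 25.4% at 20 to 50, and 2 of 4 against 36.9% from 50 on. The 3 long introns with most reads per kb among those that met the limits without being detained were intron 13 of A830080D01Rik (39.8), intron 5 of Scaf8 (18.4) and intron 6 of Usp15 (14). Whether read density entered the authors' class is not given in the sources used here.

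**Figure D4:**
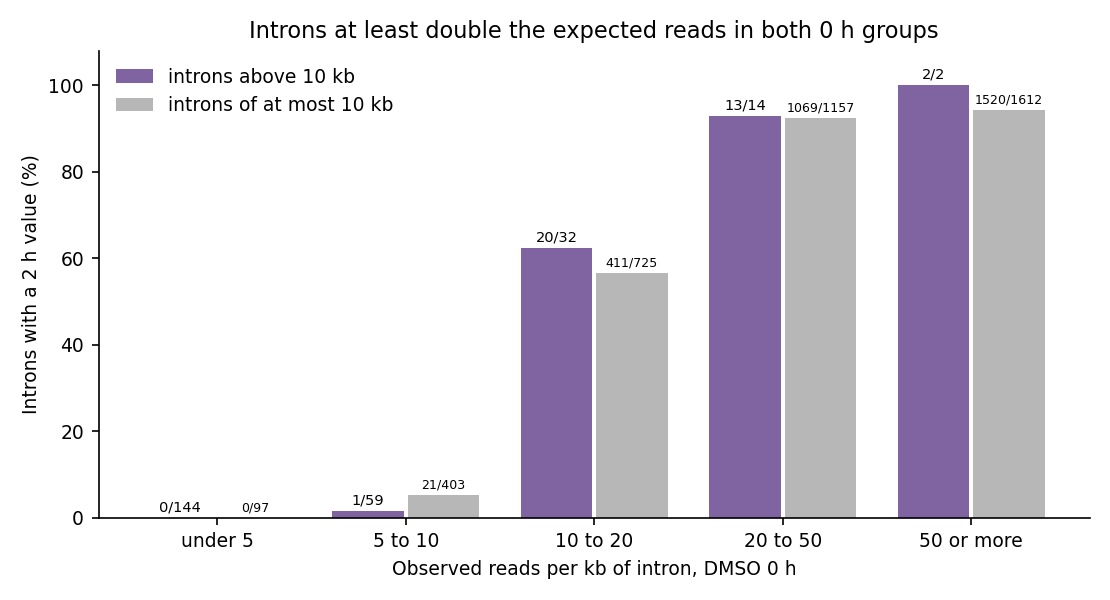
Percent of introns with a 2 h value (vertical axis) by observed reads per kb in the DMSO 0 h group (horizontal axis), among introns above expected with a log2 ratio of at least 1 in both 0 h groups; purple, above 10 kb; grey, the others; numbers above the bars are detained over all. Both sets go from 0 under 5 reads per kb to over 90% at 20 or more, and most long introns (144) stand in the lowest class.

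The 36 long detained introns had a median length of 12280 bases and went up to 20257, intron 7 of Pspc1, a paraspeckle protein. Intron 17 of Prmt3, an arginine methyltransferase, followed with 19464 bases and intron 2 of Ywhae, the 14-3-3 epsilon protein, with 18888. Their log2 ratios of observed to expected reads ran from 1.01 to 2.93 in DMSO, with a median of 1.94, and from 1.03 to 2.89 in KH-CB19 at 0 h, with a median of 1.93. In DMSO at 0 h the Ywhae intron had the highest observed mean, 1505.5 reads, and intron 2 of Chka, choline kinase alpha, the next, 1456.5. These 2 stood apart from the rest, of which the Pspc1 intron had 439, intron 21 of Smc1a 437.5 and intron 10 of Fbxo15, an F-box protein of stem cells, 407.5. The lowest observed mean was 103.5 reads, in intron 3 of Sec24b.

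By exact length, 1778 of the 1856 long introns (95.8%) matched a GENCODE intron of the same gene, and 33 of the 36 detained ones. Of the matched long introns 91.7% lay between coding exons, against 94.4% of the others, and 6.92% lay in the 5′ untranslated region, against 2.37%. An annotated exon of the same gene lay inside 32.3% of long introns and 9.02% of the others. Within 10 to 20 kb, an exon of a transcript that GENCODE marks for nonsense-mediated decay, which removes messages with early stop codons, lay inside 5 of 32 detained introns (15.6%). It was 2.31% of the 216 that were above expected and not detained, and 3.88% of the 747 that were not above. These 5 were introns of Atp11b, Chka, Ergic1, Yap1 and Zfp280d, and a share over 32 introns is imprecise. Another gene on the same strand lay inside 18.8% of these 32, 10.2% of the 216 and 6.16% of the 747, so part of their reads could come from that gene, which was not tested.

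At 2 h, 5 of the 36 long detained introns rose with KH-CB19 and 3 fell, by the adjusted p in the authors' deposited table. That is 13.9% and 8.33%, against 5.47% and 4.17% of all detained introns. The other 28 passed neither way. The balance was the reverse just below the length limit, where 8 of 232 detained introns of 5 to 10 kb (3.45%) rose and 23 (9.91%) fell. Above 5000 bases, a set that includes the 36 long ones, 13 of 268 rose and 26 fell. The median log2 ratio of KH-CB19 to DMSO was 0.09 (range -1.19 to 2.18), with 22 introns above 0 and 14 below. Over all detained introns the median was 0.00. Long detained introns had more reads, with a median DMSO 2 h mean of 186 against 57.4 in the others. Among all detained introns with at least 100 reads as the mean of both groups, a limit that every long one met and that was added after seeing the data, 10.7% rose, 6.08% fell and the median was 0.10. In the authors' response class, introns with a higher mean in KH-CB19 read "Less" and those with a lower mean read "More", also in all 8 long introns. The directions given here are those of the means and the ratio.

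The 5 introns that rose lay in Sec24b, Fnbp1, Ergic1, Cdc5l and Tmem161b. Intron 3 of Sec24b (chr3:129723561-129736748, minus strand), which encodes a coat protein of vesicles leaving the endoplasmic reticulum, had an authors' mean of 66.7 reads in DMSO and 302 in KH-CB19. The log2 ratio was 2.18 in the authors' deposited table (adjusted p = 7.51e-17), the largest rise of the 36. It was also the long detained intron with fewest reads in DMSO at both times, with 103.5 reads at 0 h against 38.5 expected. Intron 23 of Sec24b, of 3416 bases and also detained, had 84.7 reads in DMSO and 70.8 in KH-CB19, for which the authors' deposited table has a log2 ratio of -0.26 (adjusted p = 0.709). One of the introns of this gene with a 2 h value thus passed the threshold and the other did not, and the difference between them was not tested. None of the other 7 genes had a further intron with a 2 h value.

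Intron 10 of Fnbp1 (chr2:30896035-30908504, minus strand), whose F-BAR protein bends membranes in endocytosis, went from 160 reads in DMSO to 356 in KH-CB19. The authors' deposited table gives it a log2 ratio of 1.16 (adjusted p = 5.89e-06). Intron 10 of Ergic1 (chr17:26778650-26791771, plus strand), which encodes a protein cycling between endoplasmic reticulum and Golgi, went from 116 reads to 242, for which the authors' deposited table has a log2 ratio of 1.06 (adjusted p = 1.95e-04). Both introns were over 4-fold above expected at 0 h in DMSO, with 248.5 reads against 50.5 and 174 against 41.5. Intron 16 of Cdc5l (chr17:45530147-45541542, minus strand), a spliceosome component of the Prp19 complex, went from 153 reads to 262, for which the authors' deposited table has a log2 ratio of 0.78 (adjusted p = 0.00784). Intron 6 of Tmem161b (chr13:84411933-84422315, plus strand), a transmembrane protein, went from 194 reads to 333, for which the authors' deposited table has a log2 ratio of 0.78 (adjusted p = 0.00988).

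The 3 introns that fell lay in Zcchc7, Smc1a and Tor1aip2. Intron 6 of Zcchc7 (chr4:44921359-44938846, plus strand), which encodes a zinc knuckle protein of the complex that feeds RNA to the nuclear exosome, had 274 reads in DMSO and 120 in KH-CB19. Its log2 ratio was -1.19 in the authors' deposited table (adjusted p = 4.71e-04). Intron 21 of Smc1a (chrX:148482512-148493321, plus strand), a core subunit of the cohesin ring, had 385 reads in DMSO and 190 in KH-CB19, for which the authors' deposited table has a log2 ratio of -1.02 (adjusted p = 5.72e-05). Intron 6 of Tor1aip2 (chr1:157888265-157898423, plus strand), which encodes an endoplasmic reticulum activator of torsin, had 279 reads in DMSO and 157 in KH-CB19, for which the authors' deposited table has a log2 ratio of -0.83 (adjusted p = 0.00343). This intron matched one in the 5′ untranslated region, whereas the other 6 changed introns with a match lay between coding exons.

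At 0 h the 8 introns had similar ratios in both groups. In the authors' deposited table the log2 ratio of observed to expected reads was 1.43 in DMSO and 1.29 in KH-CB19 for Sec24b, and 2.30 and 2.10 for Fnbp1. It was 2.07 and 2.06 for Ergic1, 1.52 and 1.43 for Cdc5l, and 1.93 and 1.94 for Tmem161b. For the introns that later fell it was 2.21 and 2.20 in Zcchc7, 2.11 and 2.07 in Smc1a, and 1.02 and 1.03 in Tor1aip2. Introns that rose and introns that fell overlapped in this ratio. Across the 36 long detained introns, log2 means at 0 h and 2 h had a Pearson r of 0.97 in DMSO and 0.76 in KH-CB19. This is a correlation across introns, which are not independent replicates, and the same libraries give all points of an axis.

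Of the 28 that passed neither way, 3 lay near the threshold in the authors' deposited table. The Pspc1 intron, with 400 reads in DMSO and 578 in KH-CB19, had an adjusted p of 0.0506 there. Intron 26 of Eps15l1, an endocytic adaptor, had 136 reads and 211, with 0.0579 as its adjusted value there. Intron 7 of Mtmr7, a lipid phosphatase, had 179 and 261 reads and an adjusted value of 0.0914. A larger ratio did not always pass. Intron 9 of Rad18, a ubiquitin ligase of DNA damage tolerance, had 171 reads in DMSO and 359 in KH-CB19, a log2 ratio of 1.07 with an adjusted p of 0.15 in the authors' deposited table. The Prmt3 intron had 255 and 464 reads, a log2 ratio of 0.86 with an adjusted p of 0.132 there. With group means alone, the spread between libraries behind these p-values cannot be seen. The most abundant ones hardly differed between groups: the Ywhae intron had 1649 reads in DMSO and 1770 in KH-CB19, and the Chka intron 1124 and 1026.

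**Figure D5:**
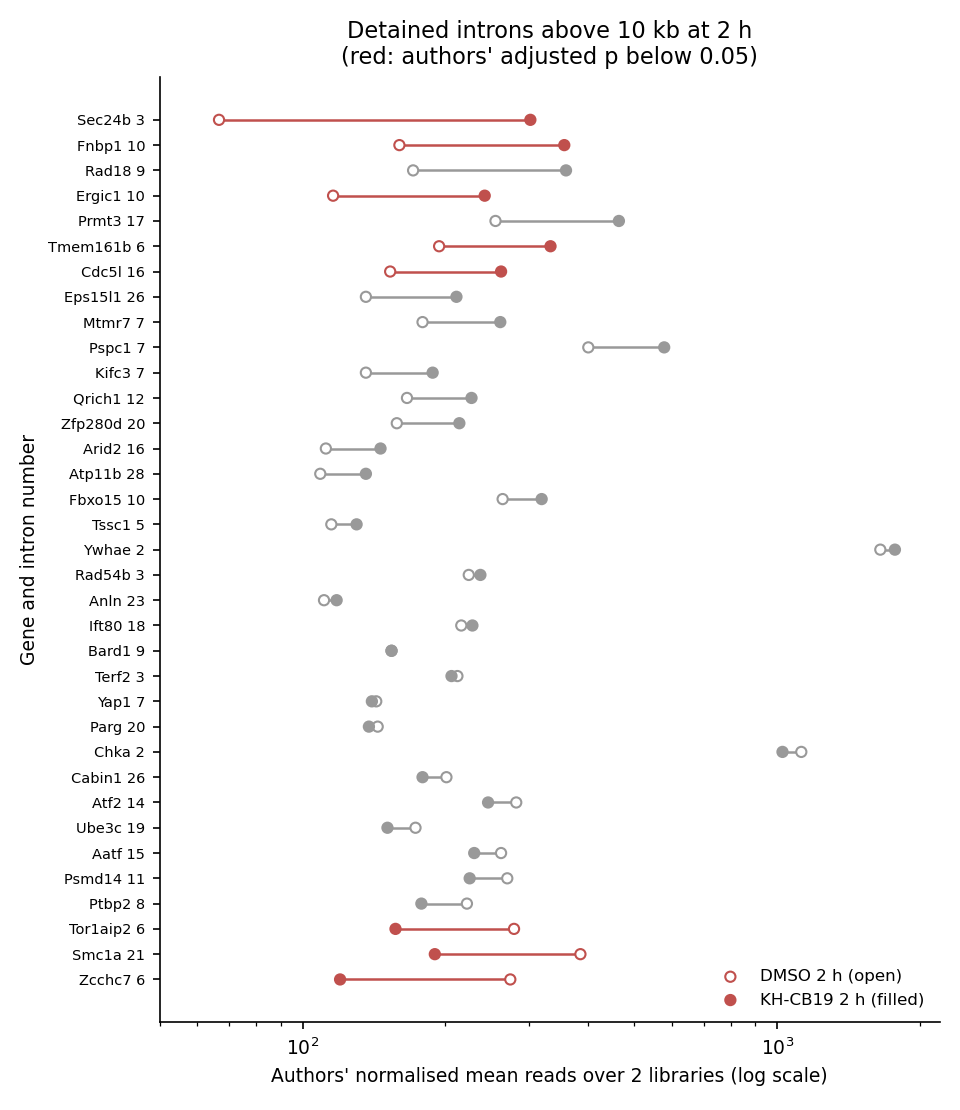
Authors' normalised mean reads at 2 h (horizontal axis, log scale) in DMSO (open) and KH-CB19 (filled) for 35 of the 36 detained introns above 10 kb (vertical axis: gene and intron number), ordered by their ratio; each mean is over 2 libraries, and red marks the authors' adjusted p below 0.05. The 5 red rises include Sec24b, from 66.7 to 302 reads, and the 3 red falls are Tor1aip2, Smc1a and Zcchc7.

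By host gene, 308 of the 1856 long introns (16.6%) fell in at least 1 of 9 gene lists. Over all long introns with a DMSO 0 h value, the shares to set beside each list are 21.1% above and 14.0% below expected, and over all introns 28.2% and 10.9%. Genes of the cytoskeleton, adhesion and small GTPase regulation had 45 long introns with a DMSO 0 h value, of which 18 (40.0%) were above expected and 2 below, with a median log2 ratio of 0.87. Beside the Utrn intron, they include intron 17 of Myo10, an unconventional myosin, with 150.5 reads against 41.5 expected, named after its values were seen. None of these introns was detained. Only 1.94% of all long introns were, so a list of this size can hold none without differing from the rest. The list also leaves out Fnbp1, whose long intron was detained. Membrane trafficking genes had 11 of 45 above and 3 below, with a median of 0.70. Genes of splicing and RNA-binding proteins had 5 of 30 (16.7%) above and 12 (40.0%) below, with a median of -0.34. Beside the Celf1 intron, intron 2 of Ptbp2, a neuronal splicing repressor, had 10 reads against 128 expected, whereas intron 8 of Ptbp2 had 268.5 against 112.5 and was detained. The first of these Ptbp2 introns was named after its values were seen. Genes of the pluripotency network had no long intron above and 4 of 11 below, all 4 in Jarid2.

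The other lists stood nearer to the median of 0.30 over all long introns. Chromatin regulators had 11 of 43 above and 10 below (median 0.00), with the Jarid2 introns counted here too. Cell cycle, replication and repair genes had 9 of 48 above and 4 below (median 0.27), and ubiquitin and protein turnover genes 4 of 20 each way (median 0.18). Signalling genes had 7 of 31 each way (median 0.25), and transcription factors 4 of 35 above and 5 below (median 0.02). At 2 h, 6 long detained introns fell in a list, among them those of Arid2, Ptbp2, Rad18, Sec24b and Atf2. The Sec24b intron was the 1 of these that changed. The other changed introns, such as those of Cdc5l, Smc1a and Ergic1, lay in genes that no list holds. The lists thus do not cover every gene of their kind. In Arid2, a subunit of the PBAF remodeller, intron 16 had 112 reads in DMSO and 146 in KH-CB19. Intron 14 of Atf2, a stress-responsive transcription factor, had 282 and 246 reads. These counts describe the lists and were not tested.

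Cell type markers could be read only where they had an intron in the table. Of 13 embryonic stem cell markers 12 had one, among them Pou5f1 and Nanog, and 5 of their introns were long. None of 10 germ layer and none of 3 trophoblast markers had an intron listed, and of 7 fibroblast markers Fn1 alone did. Fn1 had 14 introns listed, none of them long and 5 of them detained. Their observed DMSO 0 h means summed to 3265.5 reads, against 12451 over the 43 introns of the stem cell markers. RNA integrity numbers of the 8 libraries ran from 8.8 to 9.4, the lowest in a KH-CB19 2 h library, and the part of RNA quality in these results was not tested.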

How the data were processed

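Per the labels' protocols, polyadenylated RNA was sequenced from 8 libraries, 2 in each of 4 groups. Alignment to mouse build mm9 with TopHat2 2.0.9 and Bowtie 1.0.0 is named among the tools in the submitters' processing notes, as are DESeq, Cufflinks 2.1.1, bedtools 2.17.0 and SAMtools 0.1.19. Per the file headers, the authors deposited group means, namely observed and expected read counts at 0 h and a normalised read signal at 2 h, with the log2 ratio and the adjusted p-value of each comparison. The 21568 observed DMSO means at 0 h are whole or end in 0.5, so they look like means over 2 libraries without scaling. The planned count model needed values per library, so the authors' calls at an adjusted p below 0.05 were counted instead, with Python 3.11.15 and pandas 2.3.3. The counting code was tested on simulated data.

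File starts count from 0: end minus start equals an annotated intron length of the same gene in 93.4% of 22107 introns, against 0.5% one base to either side. Introns were matched to GENCODE M21 by gene, strand and exact length, and coordinates were not carried between builds. The members and gene lists were chosen with earlier results of these data known. Named were all introns changed at 2 h, the 5 highest and 5 lowest 0 h ratios past the threshold (observed mean at least 50, expected at least 5), the 5 longest introns, the 5 longest and the 5 most covered detained ones, the 5 genes with most long introns, those at the length limit and up to 3 detained introns per list. Others are named as chosen after seeing the data, or by read density or nearness to the threshold. Some introns that this rule would name are not reported here.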

Additional observations from a re-analysis of the deposited data

How the results depend on the processing

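No paired analysis was possible because only group means were used, and for the same reason no library could be left out. Of 70 recomputed values, 36 stayed within the 95% interval of the reported value (Clopper-Pearson for shares, order statistics for medians) or within 1.5 times a count, and 34 did not. With a length above 5000, 26.9% of introns were above and 12.2% below expected at 0 h (median log2 0.44), 6.27% were detained, 13 rose and 26 fell, and within genes the longer introns had the higher ratio in 31.7% and more reads per kb in 14.0%. So the order of rises and falls at 2 h differed between the limits of 10 kb and 5000. Above 10 kb it rests on 5 rises and 3 falls among 36 detained introns. Whether it depends on length was not tested. With a length above 20000 these values were 15.1%, 16.0%, 0.24, 0.122%, 0 and 0 (a median at 2 h of 0.53 from 1 intron, with no test run), 15.3% and 5.50%. With an observed DMSO mean of at least 50 reads they were 48.5%, 8.05%, 0.69 and 7.24%, and 17.1% and 6.42% within genes, with the calls at 2 h as reported. Observed reads are the numerator of the 0 h ratio, so this limit shifts the 0 h shares by itself. With an adjusted p below 0.01, 15.4% were above and 10.7% below expected, and the 5 rises and 3 falls passed as well. In the KH-CB19 0 h group 10.8% were below. A pseudocount of 10 gave a median log2 ratio of 0.21. Against introns of 5 to 10 kb of the same gene, added after seeing the data, the shares were 32.3% and 21.0%. With at least 50 expected reads, also added, 19.0% were above and 38.8% below (median -0.28), and the shares within genes were 39.5% and 25.6%. Leaving out introns whose observed equals expected, also added, gave 21.5% above and 14.2% below. Leaving out introns numbered 1 was not run since the lowest number is 2. Leaving out the first introns of the annotation, added after seeing the data, gave 21.7% above and 2.00% detained.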
